A study of Mus musculus with 18 samples.

Results

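The TGF-beta and activin system of mouse synovial fibroblasts is described here through 10 genes, taken by name from the 32285 genes of the deposited count table. They are the TGF-beta ligands Tgfb1, Tgfb2 and Tgfb3, the receptors Tgfbr1, Tgfbr2 and Tgfbr3, the activin subunits Inhba and Inhbb, and the activin-binding proteins Fst and Fstl3. The rule lists them by name and uses no measured value, but the list was chosen with earlier results of these data known. Counts of these genes called are therefore a description. All 10 were counted in every library and all 10 passed the filter on low counts.

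RNA came from fibroblasts sorted from the paws of wild-type mice, either naive or with serum-transfer-induced arthritis (STIA), in which serum of arthritic K/BxN mice is given to a recipient. The 6 groups, with 3 libraries each, were STIA cells given osteopontin (OPN, a matrix glycoprotein that integrins and CD44 bind), STIA cells left unstimulated, naive cells given fibroblast growth factor 2 (FGF2, a mitogen) and OPN together, naive cells given FGF2, naive cells given OPN, and naive cells left unstimulated. FGF2 was used at 10 ng/mL and OPN at 50 ng/mL for 3 days in vitro. None of the 6 groups holds STIA cells given FGF2, and the labels give no culture time for the unstimulated cells. Nor do they tell if the 3 libraries of a group stem from different mice or cultures, so p-values measure the spread between these libraries, which may be technical. In such bulk RNA, fewer cells of a type and less RNA per cell cannot be told apart.

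TGF-beta ligands are secreted in a latent form that is stored in the extracellular matrix. Once released they bind Tgfbr2, which recruits and activates the kinase Tgfbr1, and Tgfbr1 phosphorylates Smad2 and Smad3. Activins are dimers of the Inhba or Inhbb subunits, use the receptors Acvr2a, Acvr2b and Acvr1b, and signal through the same Smads. In fibroblasts this pathway is known for raising collagen, elastin and contractile proteins, and activin A, the dimer of Inhba, is found in the fluid of inflamed human joints.

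Library totals ran from 27527043 to 40357342 counts. The fibroblast label was borne out by its markers: the 10 fibroblast genes listed, among them Col1a1, Pdgfra and Thy1, summed to between 21200 and 78380 CPM (counts relative to library sizes scaled by the trimmed mean of M values) in every library, and none was absent. The summed level of 10 macrophage genes was 14.2 to 56.7 CPM, with Ptprc, Adgre1, C1qa and Itgam each at 0.258 CPM or less in every library. Of the 10, 5 were abundant enough to test, among them Csf1r, at group means of 0.479 to 3.13 CPM, and Cd14, at 3.65 to 43.8 CPM. The 4 Schwann cell genes listed summed to 18.5 to 38.9 CPM. The FGF2 library numbered 2 stood apart from the other FGF2 libraries in several of the 10 genes. Several results of the 10 genes are given with and without it, but fold changes of single genes outside the 10 only with it.

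Per kilobase of exon, Inhba was the most abundant of the 10 genes over the 18 libraries, at a mean of 48.6 CPM per kb, followed by Tgfb3 at 45.0 and Tgfbr3 at 31.3 CPM per kb. Tgfbr1 was the least abundant at 5.76 CPM per kb. This order pools groups that differ: Tgfb3 at 46.8, Tgfbr3 at 36.0 and Tgfbr2 at 28.3 CPM per kb were above Inhba at 20.7 CPM per kb in unstimulated naive cells. With both factors Tgfbr3 was at 57.8 and Inhba at 20.4 CPM per kb, and with FGF2 the lowest was Tgfb2 at 0.889 CPM per kb. The lowest raw count of any member was 113 reads, for Tgfb2 in an FGF2 library, while 3 reads corresponded to at most 0.109 CPM.

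The promoter windows of Tgfb2 and Inhba are shown because these are the ligand genes with the largest changes below, in opposite directions with FGF2. RefSeq windows of the GRCm38.p6 build, from 250 bases before to 50 bases after the annotated start, were found for 7 of the 10 genes, in 8 windows. Tgfb3, Tgfbr3 and Fst were not matched. Tgfb2 lies on chromosome 1 (186622792 to 186705989, minus strand), Inhba on chromosome 13 (16011851 to 16031621, plus strand) and Fst also on chromosome 13 (114452290 to 114458951, minus strand), in GRCm38. The Tgfb2 window is chr1:186705940-186706239 on the minus strand and the Inhba window is chr13:16011601-16011900 on the plus strand. Both are written 5′ to 3′ along the gene, with TATAAA and CAGAC (the core of a Smad-binding CAGA box) in capitals wherever either stands on either strand.
Tgfb2: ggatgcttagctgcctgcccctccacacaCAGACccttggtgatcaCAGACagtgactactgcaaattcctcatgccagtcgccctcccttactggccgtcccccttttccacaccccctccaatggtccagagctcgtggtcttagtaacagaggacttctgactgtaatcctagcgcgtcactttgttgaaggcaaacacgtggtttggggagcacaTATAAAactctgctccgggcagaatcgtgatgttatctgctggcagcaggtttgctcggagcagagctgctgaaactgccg
Inhba: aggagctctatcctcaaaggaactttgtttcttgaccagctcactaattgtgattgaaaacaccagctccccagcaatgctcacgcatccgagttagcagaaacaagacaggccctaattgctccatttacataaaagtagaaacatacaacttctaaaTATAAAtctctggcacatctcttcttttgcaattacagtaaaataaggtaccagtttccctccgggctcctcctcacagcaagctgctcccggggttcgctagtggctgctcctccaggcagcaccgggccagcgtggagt

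In the Tgfb2 window TATAAA begins at position -31 and CAGAC at positions -221 and -204, counted from the annotated start. In the Inhba window TATAAA begins at position -91. Of the 32851 RefSeq windows of the same length, 13.6% hold TATAAA and 49.6% hold CAGAC on either strand. Neither the AP-1 motif TGANTCA, held by 7.81% of windows, nor the cAMP response element TGACGTCA, held by 1.79%, was found in any of the 8 member windows. Such matches describe letters and not bound sites.

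**Figure D1:**
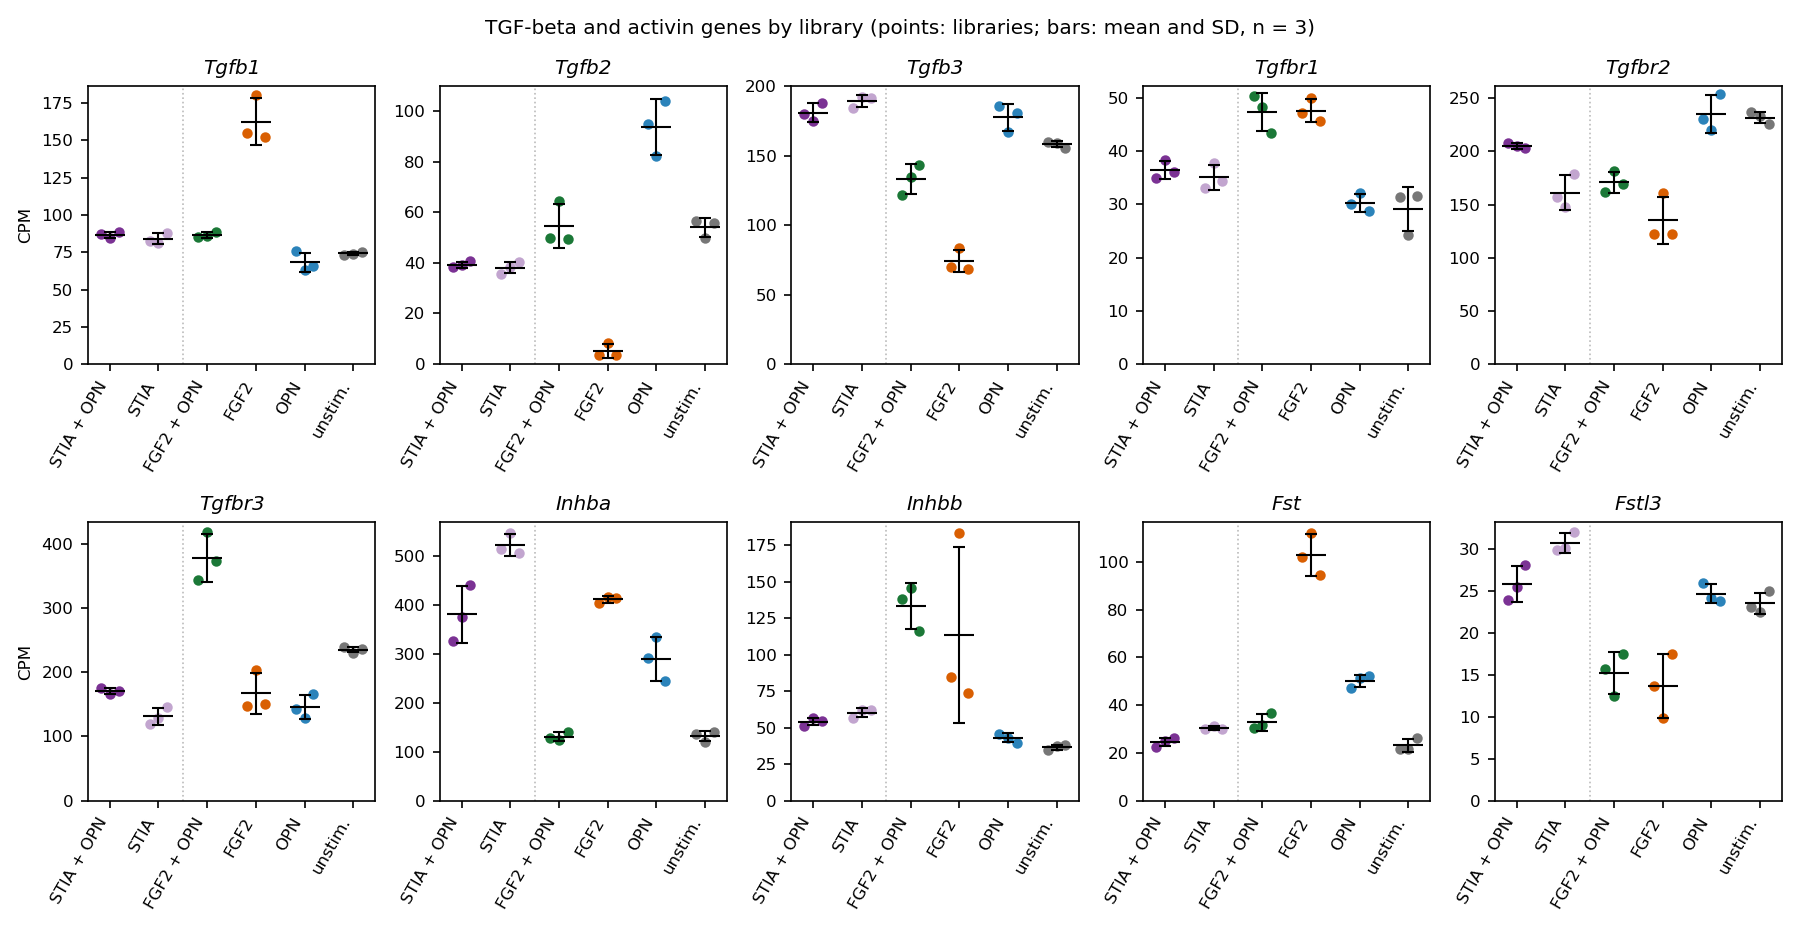
CPM of the 10 genes in each library, with 1 panel per gene, 6 groups along the horizontal axis, points for libraries and bars for the mean and SD of 3 libraries. The 3 FGF2 libraries hold 3.48 to 8.20 CPM of Tgfb2, below every other library, and Inhba is high with FGF2 alone but near the unstimulated level with FGF2 and OPN together.

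The first comparison asked what FGF2 alone did to naive fibroblasts. FGF2 raised Inhba, Inhbb, Fst, Tgfb1 and Tgfbr1 and lowered Tgfb2, Tgfb3, Tgfbr2, Tgfbr3 and Fstl3. All 10 genes thus passed the threshold (adjusted p below 0.05 by edgeR's quasi-likelihood test over all genes), 5 in each direction, against 57.1% of the 15072 genes tested, of which 4379 were higher and 4230 lower. The libraries of the FGF2 and unstimulated groups did not overlap in any of the 10 genes. How many of all tested genes also lacked overlap was not counted, so this is a description only. The median size of the log2 fold change was 1.11 over the 10 genes. The median size over all tested genes was not computed, for this or the later comparisons.

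Among the ligands, Tgfb2 changed most. It measured 3.77, 8.20 and 3.48 CPM with FGF2, against 56.5, 49.8 and 55.8 CPM in unstimulated naive cells. Every FGF2 library lay far below every unstimulated one, a 10.5-fold fall (log2 fold change -3.40, SE 0.22, adjusted p = 4.46e-09). Without the FGF2 library numbered 2, which held the 8.20 CPM, the log2 fold change was -3.90.

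Tgfb3, the isoform most abundant per kilobase in unstimulated cells, measured 70.2, 83.3 and 68.7 CPM with FGF2, against 160, 159 and 156 CPM unstimulated. The groups were well apart, and the log2 fold change was -1.10 (SE 0.07, adjusted p = 4.34e-12). Tgfb1, the isoform best known from wound repair and immune regulation, went the other way. It measured 155, 180 and 152 CPM with FGF2, against 73.3, 74.1 and 75.3 CPM unstimulated, a 2.19-fold rise (log2 fold change 1.13, SE 0.07, adjusted p = 1.42e-12).

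Inhba, the subunit of activin A, measured 402, 415 and 414 CPM with FGF2, against 136, 120 and 141 CPM in unstimulated cells. The FGF2 libraries lay close together and all lay above the unstimulated ones, a 3.10-fold rise (log2 fold change 1.63, SE 0.10, adjusted p = 2.88e-11). Inhbb, the subunit of activin B, measured 84.6, 183 and 73.8 CPM with FGF2, against 34.7, 37.4 and 37.8 CPM unstimulated. All FGF2 libraries were above the unstimulated ones, but the library numbered 2 stood far above the other 2 FGF2 libraries. The log2 fold change was 1.64 (SE 0.26, adjusted p = 0.000127) with that library and 1.11 (SE 0.09, adjusted p = 1.01e-10) without it.

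Fst, which encodes follistatin, a secreted protein that binds and neutralises activins, rose the most of the 10 genes. It measured 102, 112 and 94.5 CPM with FGF2, against 21.8, 21.5 and 26.3 CPM unstimulated, and the groups were far apart (log2 fold change 2.15, SE 0.09, adjusted p = 1.87e-15). Fstl3, a related activin binder, moved the opposite way and averaged 13.7 ± 3.80 CPM with FGF2 and 23.5 ± 1.30 CPM unstimulated (SD, n = 3 each; log2 fold change -0.78, SE 0.14, adjusted p = 0.0001). Without the FGF2 library numbered 2 the log2 fold change of Fstl3 was -0.59.

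The receptors changed less than the ligands. Tgfbr1, the signalling kinase, averaged 47.6 ± 2.18 CPM with FGF2 and 29.1 ± 4.17 CPM unstimulated (SD, n = 3 each; log2 fold change 0.71, adjusted p = 2.62e-07). Tgfbr2, the ligand-binding kinase, averaged 135 ± 21.9 CPM with FGF2 and 232 ± 5.41 CPM unstimulated (log2 fold change -0.78, adjusted p = 1.06e-07). Tgfbr3, or betaglycan, a co-receptor that presents TGF-beta2 and binds inhibins, averaged 167 ± 31.6 CPM with FGF2 and 236 ± 4.09 CPM unstimulated (log2 fold change -0.49, adjusted p = 0.000883). Without the FGF2 library numbered 2 the log2 fold changes were 0.67 for Tgfbr1, -0.92 for Tgfbr2 and -0.66 for Tgfbr3.

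**Figure D2:**
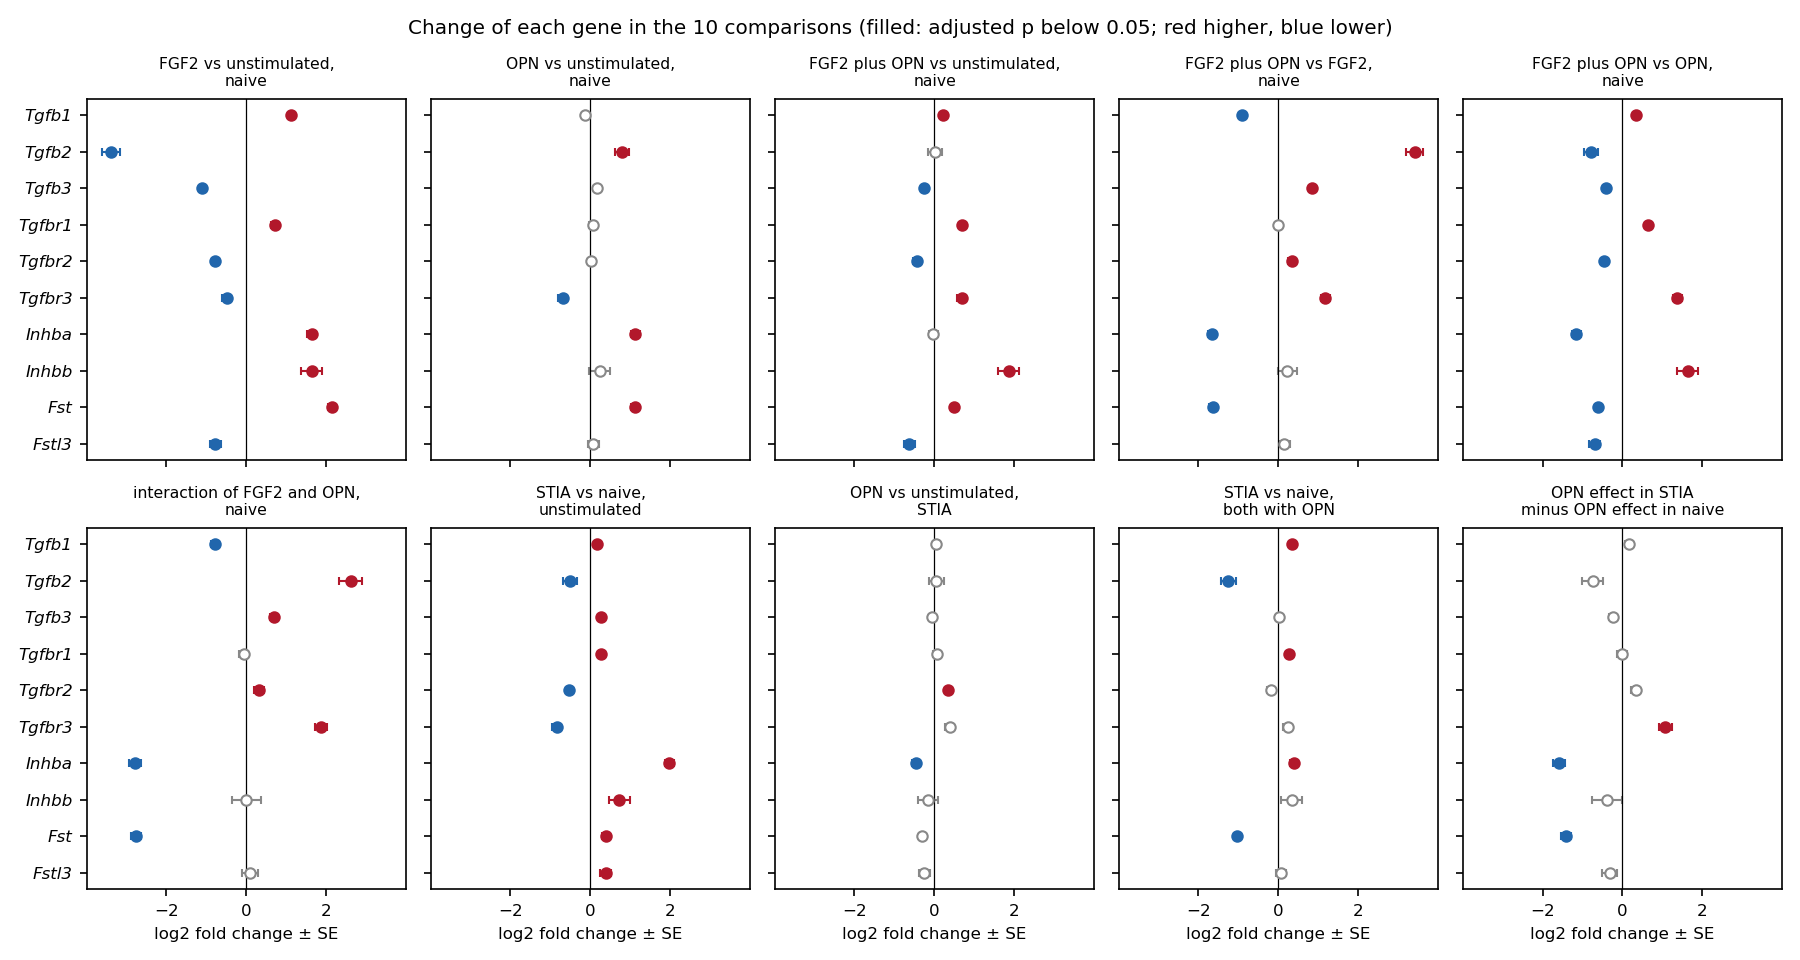
Log2 fold change with its SE for each of the 10 genes in each of the 10 comparisons; filled points passed an adjusted p of 0.05, red for higher and blue for lower in the first-named group. Tgfb2 spans -3.40 with FGF2 alone to 3.41 where OPN was added to FGF2, and 8 of the 10 points for OPN in STIA cells are open.

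Markers of other cells moved with FGF2 beside these results. The 10 fibroblast markers summed to 21200 to 23130 CPM with FGF2, against 69070 to 78380 CPM unstimulated, sums made up mostly of collagen RNA in unstimulated cells. Of these markers 5 were lower, among them Col1a1, and 3 higher, namely Pdpn (829 ± 39.7 CPM with FGF2 and 181 ± 3.17 CPM unstimulated), Vim and Pdgfra (SD, n = 3 each). The macrophage list summed to 53.9 to 56.7 CPM with FGF2, against 14.3 to 15.5 CPM unstimulated, of which Cd14 was 43.8 ± 3.12 CPM with FGF2 and 6.03 ± 0.582 CPM unstimulated (SD, n = 3 each), while 5 of the 10 markers stayed under 0.2 CPM in every FGF2 library. Of the 5 macrophage markers tested, Cd14, Mrc1 and Cd68 were higher with FGF2 and 2 were lower, Lyz2 (0.576 CPM with FGF2 and 3.86 CPM unstimulated) and Csf1r (0.479 CPM with FGF2 and 2.92 CPM unstimulated). Rgs5, a pericyte marker, was 41.1 ± 24.9 CPM with FGF2 (highest, 69.8 CPM, in the library numbered 2), 38.4 ± 2.52 with both factors and 2.23 ± 0.855 CPM unstimulated, while the 7 pericyte and smooth muscle markers together summed to 260 to 364 CPM with FGF2 and 311 to 329 CPM unstimulated. Rgs5 was the 1 marker of those 7 that was higher with FGF2, and 5 were lower (median log2 fold change -1.63), among them Notch3 at 7.40 CPM with FGF2 and 22.9 CPM unstimulated. The 8 endothelial markers summed to 17.4 to 18.4 CPM with FGF2 and 11.5 to 13.7 CPM unstimulated, with 2 of them under 0.2 CPM in every FGF2 library. Of the 6 endothelial markers tested, 4 were higher with FGF2 and 1 lower (median log2 fold change 1.92). In unstimulated STIA cells the macrophage sum was 14.3 to 15.4 CPM, against 14.3 to 15.5 CPM in unstimulated naive cells. The fibroblast sum was 50030 to 56180 CPM in STIA cells, below the 69070 to 78380 CPM of naive cells, with 2 of the 10 markers higher and 6 lower. The pericyte and smooth muscle sum was 355 to 424 CPM in STIA cells, above the 311 to 329 CPM of naive cells, with 2 of the 7 higher, Mcam and Myh11, and 1 lower. Lymphocyte and neutrophil markers summed to at most 2.88 CPM in any library. Of all genes tested, 57.1% were called with FGF2 and 36.8% between unstimulated STIA and naive cells. The part of such cells in the changes of the 10 genes was not tested.

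OPN alone raised Inhba, Fst and Tgfb2 and lowered Tgfbr3 in naive cells. These 4 of the 10 genes passed the test, 3 higher and 1 lower, against 31.7% of all genes tested. The median size of the log2 fold change over the 10 genes was 0.20. The comparison shares its unstimulated libraries with the FGF2 comparison, so the 2 sets of fold changes are not independent.

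Inhba measured 291, 333 and 243 CPM with OPN, against 136, 120 and 141 CPM unstimulated. All OPN libraries lay above all unstimulated ones, a 2.19-fold rise (log2 fold change 1.13, SE 0.10, adjusted p = 1.34e-07). Fst measured 47.2, 51.2 and 52.1 CPM with OPN, against 21.8, 21.5 and 26.3 CPM unstimulated. Its groups did not overlap either (log2 fold change 1.11, SE 0.09, adjusted p = 5.08e-09).

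Tgfb2 averaged 93.7 ± 11.1 CPM with OPN and 54.0 ± 3.72 CPM unstimulated (SD, n = 3 each; log2 fold change 0.79, SE 0.18, adjusted p = 0.00422). OPN and FGF2 alone thus moved Tgfb2 in opposite directions. Tgfbr3 averaged 145 ± 18.8 CPM with OPN and 236 ± 4.09 CPM unstimulated (log2 fold change -0.70, SE 0.11, adjusted p = 0.000123). The 6 genes that did not pass were Tgfb1, Tgfb3, Tgfbr1, Tgfbr2, Inhbb and Fstl3, with log2 fold changes between -0.12 and 0.23. Tgfb3 at 0.17 (SE 0.07) and Inhbb at 0.23 (SE 0.26) had OPN libraries that all lay above the unstimulated ones, and both passed when the model was fitted without the FGF2 library numbered 2, an alternative chosen after seeing the data (adjusted p = 0.031 for Tgfb3 and 0.0282 for Inhbb by edgeR).

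With FGF2 and OPN together, the libraries overlapped the unstimulated ones in Inhba and Tgfb2, although each factor alone had moved both genes. Against unstimulated naive cells, 8 of the 10 genes passed the test, 5 higher and 3 lower, against 49.8% of all genes tested. Inhbb, Tgfbr1, Tgfbr3, Fst and Tgfb1 were higher and Fstl3, Tgfbr2 and Tgfb3 lower. With library totals in place of the scaled sizes the median of all genes shifted by 0.14 on the log2 scale, calls over all genes split into 5253 higher and 2414 lower in place of 3573 and 3940, and the Tgfb3 call was lost (log2 fold change -0.11, adjusted p = 0.17).

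Inhbb rose the most. It measured 138, 146 and 116 CPM with both factors, against 34.7, 37.4 and 37.8 CPM unstimulated. Every library with both factors was above every unstimulated one, a 3.64-fold rise (log2 fold change 1.87, SE 0.26, adjusted p = 6.09e-05). Tgfbr3 averaged 378 ± 37.9 CPM with both factors and 236 ± 4.09 CPM unstimulated (SD, n = 3 each; log2 fold change 0.68, adjusted p = 4.74e-05). Inhba had a log2 fold change of -0.02 (SE 0.10, and 0.12 with library totals) and Tgfb2 one of 0.01 (SE 0.18), and neither passed.

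Set against FGF2 alone, the addition of OPN raised Tgfb2, Tgfbr3, Tgfb3 and Tgfbr2 and lowered Inhba, Fst and Tgfb1. These were 7 of the 10 genes, 4 higher and 3 lower, against 58.4% of all genes tested. Inhba measured 127, 123 and 140 CPM with both factors, against 402, 415 and 414 CPM with FGF2 alone. The groups were far apart (log2 fold change -1.66, SE 0.10, adjusted p = 4.21e-11).

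Tgfb2 measured 49.8, 64.5 and 49.5 CPM with both factors, against 3.77, 8.20 and 3.48 CPM with FGF2 alone. All libraries with both factors lay above all FGF2 libraries, by 10.6-fold (log2 fold change 3.41, SE 0.22, adjusted p = 6.04e-09), and the log2 fold change was 3.91 without the FGF2 library numbered 2. Fst measured 30.2, 31.5 and 36.8 CPM with both factors, against 102, 112 and 94.5 CPM with FGF2 alone, again without overlap (log2 fold change -1.65, SE 0.09, adjusted p = 2.77e-13). Tgfbr3 measured 343, 419 and 373 CPM with both factors, against 147, 204 and 151 CPM with FGF2 alone. Even the lowest library with both factors was above the highest FGF2 library (log2 fold change 1.18, SE 0.11, adjusted p = 4.1e-08).

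The members that did not pass against FGF2 alone were Tgfbr1 (log2 fold change -0.01, SE 0.08), Fstl3 (0.15, SE 0.14) and Inhbb (0.23, SE 0.25). Inhbb depended on the FGF2 library numbered 2: without it the log2 fold change was 0.75 (SE 0.09, adjusted p = 9.97e-08 by edgeR).

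Set against OPN alone, the addition of FGF2 changed all 10 genes, 4 higher and 6 lower, against 56.5% of all genes tested. With library totals the median of all genes shifted by 0.12 and the calls over all genes split into 5433 higher and 3060 lower in place of 4079 and 4443. Tgfbr3 measured 343, 419 and 373 CPM with both factors, against 143, 128 and 166 CPM with OPN alone, with no overlap (log2 fold change 1.38, SE 0.11, adjusted p = 7.64e-09). Inhba measured 127, 123 and 140 CPM with both factors, against 291, 333 and 243 CPM with OPN alone. All libraries with both factors were the lower ones (log2 fold change -1.15, SE 0.10, adjusted p = 1.32e-08). Inhbb measured 138, 146 and 116 CPM with both factors, against 46.0, 43.2 and 39.8 CPM with OPN alone, and the groups were far apart (log2 fold change 1.63, SE 0.26, adjusted p = 0.000133).

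The interaction of FGF2 and OPN, that is the log2 effect of both factors less the sum of their separate effects, was tested directly over the 4 naive groups. It passed in 7 of the 10 genes, 4 positive and 3 negative, against 51.2% of all genes tested. Inhba had an interaction of -2.79 (SE 0.15, adjusted p = 5.92e-12). Fst had an interaction of -2.76 (SE 0.12, adjusted p = 5.48e-14). Tgfb2 had an interaction of 2.62 (SE 0.29, adjusted p = 2.87e-06), and 3.12 without the FGF2 library numbered 2. Tgfbr3, lowered by each factor alone and raised by the pair, had an interaction of 1.87 (SE 0.16, adjusted p = 1.44e-08).

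The interaction of Tgfb1 was -0.79 (SE 0.10, adjusted p = 4.24e-07) and that of Tgfb3 was 0.68 (SE 0.10, adjusted p = 4.66e-06). That of Tgfbr2 was 0.32 (SE 0.12, adjusted p = 0.0359), and its adjusted p rose to between 0.0519 and 0.108 when any of 8 single libraries was left out, namely FGF2 1 and 3, OPN 1 and 2, FGF2 with OPN 2 and 3, and unstimulated 1 and 2. Tgfbr1, Fstl3 and Inhbb did not pass, with interactions of -0.07, 0.08 and -0.01. The Inhbb interaction had an SE of 0.36, and without the FGF2 library numbered 2 it was 0.52 (SE 0.12, adjusted p = 0.000733).

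Fibroblasts from arthritic paws held 3.94-fold more Inhba RNA than naive fibroblasts when both were left unstimulated. All 10 genes passed the test, 7 higher (Inhba, Inhbb, Fst, Fstl3, Tgfbr1, Tgfb3 and Tgfb1) and 3 lower (Tgfbr3, Tgfbr2 and Tgfb2) in STIA, against 36.8% of all genes tested. The libraries of the 2 groups did not overlap in any of the 10 genes, but the share of all tested genes without overlap was not counted. Except for Inhba, the changes were smaller than 1 on the log2 scale, and the median size was 0.45.

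Inhba measured 513, 546 and 504 CPM in STIA cells, against 136, 120 and 141 CPM in naive cells. The STIA libraries were the highest of all 18 for Inhba (log2 fold change 1.98, SE 0.11, adjusted p = 9.61e-11). Tgfbr3 averaged 131 ± 13.0 CPM in STIA cells and 236 ± 4.09 CPM in naive cells (SD, n = 3 each; log2 fold change -0.84, adjusted p = 1.34e-05), and Tgfbr2 averaged 161 ± 16.2 CPM in STIA cells and 232 ± 5.41 CPM in naive cells (log2 fold change -0.52, adjusted p = 8.44e-05). Tgfb3 was higher by 0.26 on the log2 scale (adjusted p = 0.00527) and Fst by 0.39 (adjusted p = 0.00166).

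The other 5 calls lay close to the threshold, at adjusted p between 0.0196 and 0.0473 by edgeR. They were Tgfb1 (log2 fold change 0.18), Tgfb2 (-0.51), Tgfbr1 (0.27), Inhbb (0.72) and Fstl3 (0.38). Leaving out any 1 of the 6 libraries ended the calls of Tgfb1, Tgfb2 and Inhbb, with adjusted p up to 0.164 and log2 fold changes of 0.14 to 0.20 for Tgfb1, -0.56 to -0.46 for Tgfb2 and 0.68 to 0.77 for Inhbb. Without the STIA or the naive library numbered 2, the Tgfbr1 call ended (log2 fold change 0.15 to 0.22), and the Fstl3 call ended without any of these 6 libraries but the naive one numbered 3 (0.35 to 0.40). All 10 genes were still called when the model was fitted without the FGF2 library numbered 2, and Tgfb2 then had an SE of 0.09 in place of 0.19 (adjusted p = 0.00021).

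OPN changed few of the 10 genes in STIA cells. Of the 10, 2 passed the test, Tgfbr2 higher and Inhba lower, against 2.17% of all genes tested. Inhba averaged 380 ± 57.4 CPM in STIA cells with OPN and 521 ± 22.0 CPM in unstimulated STIA cells (SD, n = 3 each; log2 fold change -0.46, SE 0.10, adjusted p = 0.0258). Tgfbr2 averaged 205 ± 2.55 CPM with OPN and 161 ± 16.2 CPM unstimulated (log2 fold change 0.35, SE 0.09, adjusted p = 0.038). Without the unstimulated STIA library 1 or 2, or the STIA library with OPN numbered 1 or 2, neither gene passed (log2 fold change -0.47 to -0.36 and adjusted p 0.11 to 0.117 for Inhba, and log2 fold change 0.29 to 0.36 for Tgfbr2), and the Tgfbr2 call also ended without the STIA library with OPN numbered 3. At an unadjusted p under 0.05, 4 of the 10 genes differed in the whole set of libraries, the other 2 being Tgfbr3 (0.38) and Fst (-0.31), and DESeq2 called 4.

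Against naive cells with OPN, STIA cells with OPN differed in 5 of the 10 genes, 3 higher and 2 lower, against 40.0% of all genes tested. The count was 8 without the FGF2 library numbered 2 and 8 with no filter on low counts, where Tgfbr2, Tgfbr3 and Inhbb also passed. Tgfb2 measured 38.3, 39.0 and 40.5 CPM in STIA cells with OPN, against 94.9, 82.1 and 104 CPM in naive cells with OPN. The STIA libraries lay tightly together and far below the naive ones (log2 fold change -1.25, SE 0.18, adjusted p = 9.45e-05). Fst measured 22.6, 24.8 and 26.2 CPM in STIA cells with OPN, against 47.2, 51.2 and 52.1 CPM in naive cells with OPN, without overlap (log2 fold change -1.03, SE 0.09, adjusted p = 8.03e-09). Tgfb1 (0.34, adjusted p = 0.000333), Inhba (0.39, adjusted p = 0.00432) and Tgfbr1 (0.27, adjusted p = 0.0171) were higher, although the Inhba libraries of the 2 groups overlapped and its call ended (adjusted p = 0.118) when these 2 groups alone were fitted. The Tgfbr1 call ended without the naive OPN library 3 (log2 fold change 0.23) or the STIA library with OPN numbered 2 (0.23).

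The difference between the OPN effect in STIA and in naive cells was tested directly and passed in 3 of the 10 genes, against 22.3% of all genes tested. For Inhba the OPN effect was -0.46 in STIA cells and 1.13 in naive cells on the log2 scale, a difference of -1.59 (SE 0.15, adjusted p = 3.38e-07). For Fst it was -0.31 in STIA cells and 1.11 in naive cells, a difference of -1.42 (SE 0.12, adjusted p = 8.01e-08). For Tgfbr3 it was 0.38 in STIA cells and -0.70 in naive cells, a difference of 1.08 (SE 0.16, adjusted p = 8.42e-05). Within STIA cells the OPN effects of Fst (adjusted p = 0.0742 by edgeR) and Tgfbr3 (0.0864) were not called, and the Inhba call was lost without some single libraries. Unstimulated STIA libraries held 504 to 546 CPM of Inhba, above the 243 to 333 CPM of naive libraries with OPN.

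The difference for Tgfb2 was -0.75 (SE 0.26, adjusted p = 0.0538), with an OPN effect of 0.05 in STIA cells and 0.79 in naive cells. With the model fitted without the FGF2 library numbered 2, Tgfb2 passed (-0.74, SE 0.13, adjusted p = 0.000271), and so did Tgfb3, Tgfbr2 and Inhbb, for 7 genes in all (adjusted p 0.0104 to 0.043 for these 3).

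Ordered by group mean, Inhba was highest in unstimulated STIA cells at 521 ± 22.0 CPM (SD, n = 3), then with FGF2 at 410 ± 7.13, in STIA cells with OPN at 380 ± 57.4, with OPN at 289 ± 45.0, unstimulated at 132 ± 10.8 and with both factors at 130 ± 9.07 CPM. Libraries overlapped between FGF2 and STIA with OPN, between STIA with OPN and OPN, and between unstimulated and both factors. Fst was ordered differently, with FGF2 first at 103 ± 8.74 CPM, then OPN at 50.2 ± 2.63, both factors at 32.9 ± 3.51, STIA at 30.4 ± 0.835, STIA with OPN at 24.5 ± 1.82 and unstimulated at 23.2 ± 2.67 CPM. Both factors and STIA overlapped, as did the last 2.

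Tgfb2 ran from 93.7 CPM with OPN, through 54.6 ± 8.56 with both factors, 54.0 unstimulated, 39.3 ± 1.13 in STIA with OPN and 38.1 ± 2.23 in STIA, to 5.15 ± 2.64 CPM with FGF2. The overlapping neighbours were both factors with unstimulated and the 2 STIA groups with each other. Tgfb3 was highest in STIA at 189 ± 4.39 CPM and lowest with FGF2 at 74.1 ± 7.99 CPM, and the first 3 groups (STIA, STIA with OPN and OPN) overlapped in turn. Tgfb1 was highest with FGF2, and STIA with OPN, both factors and STIA followed with overlapping libraries at 86.7, 86.5 and 84.0 CPM.

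Tgfbr3 was highest with both factors and next highest unstimulated, and the libraries of the 4 lower groups, at 171 to 131 CPM, overlapped from each neighbour to the next. Tgfbr2 was highest with OPN at 235 ± 17.7 CPM and unstimulated, which overlapped, and lowest with FGF2. Tgfbr1 was highest in the 2 FGF2-treated groups, 47.6 and 47.3 CPM, which overlapped. Inhbb was highest in the same groups, both factors at 133 ± 15.6 and FGF2 at 114 ± 60.3 CPM, where the large SD came from the library numbered 2. Fstl3 was highest in STIA at 30.7 ± 1.19 CPM and lowest in the same FGF2-treated groups, at 15.2 and 13.7 CPM, which overlapped.

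Because follistatin neutralises activin, the 2 transcripts were set against each other per kilobase of exon. Inhba exceeded Fst in every library. The log2 ratio was 3.47 ± 0.11 in STIA cells with OPN and 3.62 ± 0.02 in STIA cells, against 1.51 ± 0.07 with both factors, 1.52 ± 0.12 with FGF2, 2.04 ± 0.26 with OPN and 2.04 ± 0.11 in unstimulated naive cells (SD, n = 3 each). In linear terms the STIA ratio was 12.3 and the unstimulated naive ratio 4.10. The 6 STIA libraries thus all lay above the 12 naive ones, whose highest log2 ratio was 2.23. FGF2 alone, which raised both genes, had a lower ratio than unstimulated cells in all 3 libraries, and OPN alone, which also raised both, had libraries that overlapped the unstimulated ones. With Fstl3 added to Fst the order of these groups was another. The log2 ratio of Inhba to the sum of Fst and Fstl3 was 1.18 to 1.22 with FGF2 and 0.85 to 1.31 with OPN, both above the 0.44 to 0.58 of unstimulated naive cells. It was 0.53 to 0.69 with both factors, which overlapped unstimulated cells, and 1.79 to 2.16 over the 6 STIA libraries, again above all naive ones.

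**Figure D3:**
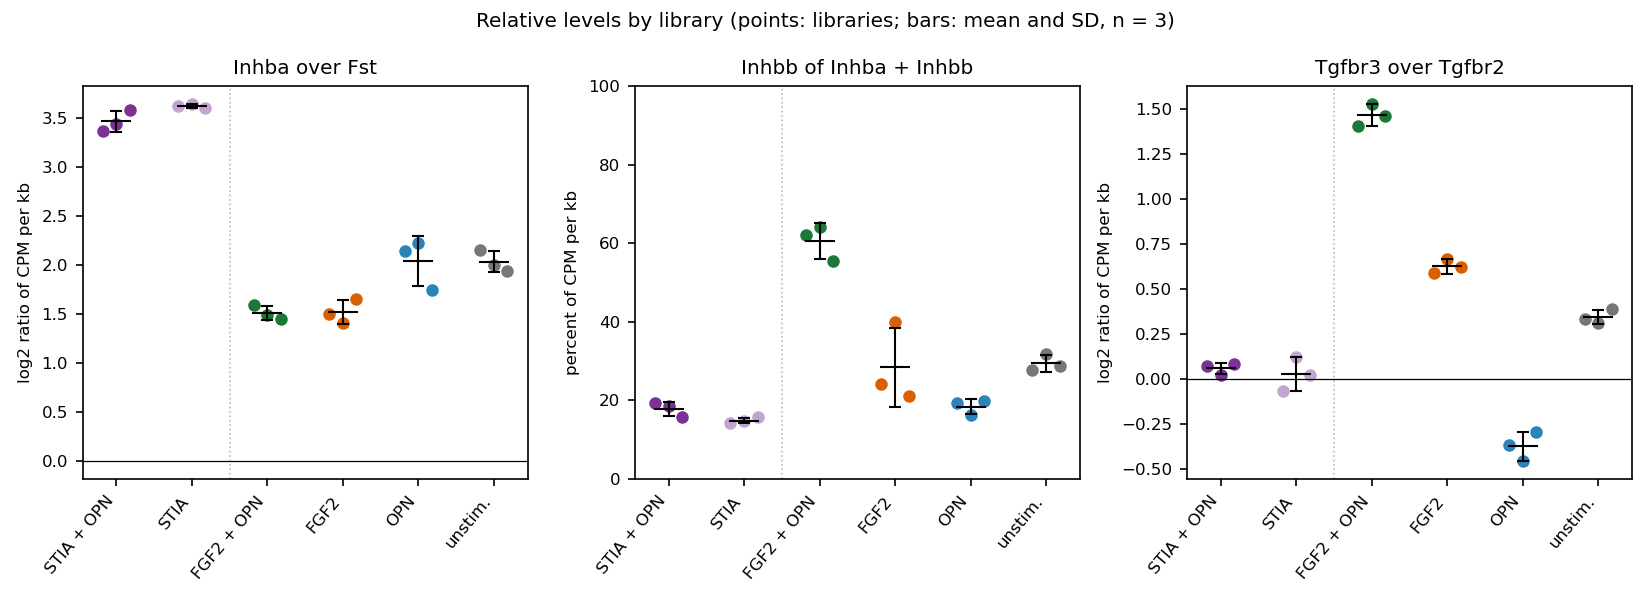
Log2 ratio of Inhba to Fst, share of Inhbb in Inhba plus Inhbb, and log2 ratio of Tgfbr3 to Tgfbr2, each from CPM per kilobase of exon, by group and library with the mean and SD of 3 libraries. STIA libraries lie between 3.37 and 3.65 in the first panel, and the libraries with both factors lie above all others in the other 2 panels.

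The activin subunits also differed in balance. Inhbb made up 60.5% ± 4.54 of the summed Inhba and Inhbb level per kilobase with both factors, 28.3% ± 10.1 with FGF2, 18.4% ± 1.84 with OPN and 29.4% ± 2.13 in unstimulated naive cells (SD, n = 3 each). In the libraries with both factors the share was 55.4% to 64.1%, above every other library, of which the highest was the FGF2 library numbered 2 at 39.9%. The other FGF2 libraries, at 24.0% and 21.1%, lay below all unstimulated ones, at 27.7% to 31.8%. The log2 ratio of Tgfbr3 to Tgfbr2 per kilobase was 1.47 ± 0.06 with both factors, 0.63 ± 0.04 with FGF2, -0.38 ± 0.08 with OPN and 0.35 ± 0.04 unstimulated, and these 4 groups did not overlap.

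Tgfb1 took the place of Tgfb3 as the leading TGF-beta isoform under FGF2, and Tgfb2 was last in both groups. Tgfb1 made up 58.6% ± 0.64 of the summed level of the 3 isoforms per kilobase with FGF2 and 20.8% ± 0.44 in unstimulated naive cells (SD, n = 3 each). Tgfb3 made up 39.8% ± 0.02 with FGF2 and 66.1% ± 0.85 unstimulated, and Tgfb2 made up 1.57% ± 0.62 with FGF2 and 13.2% ± 0.82 unstimulated. The summed level was 55.0 ± 5.91 CPM per kb with FGF2 and 70.9 ± 0.68 CPM per kb unstimulated. With both factors Tgfb3 was again the leading isoform at 59.7% ± 1.85, and in STIA cells it made up 70.7% ± 0.80.

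**Figure D4:**
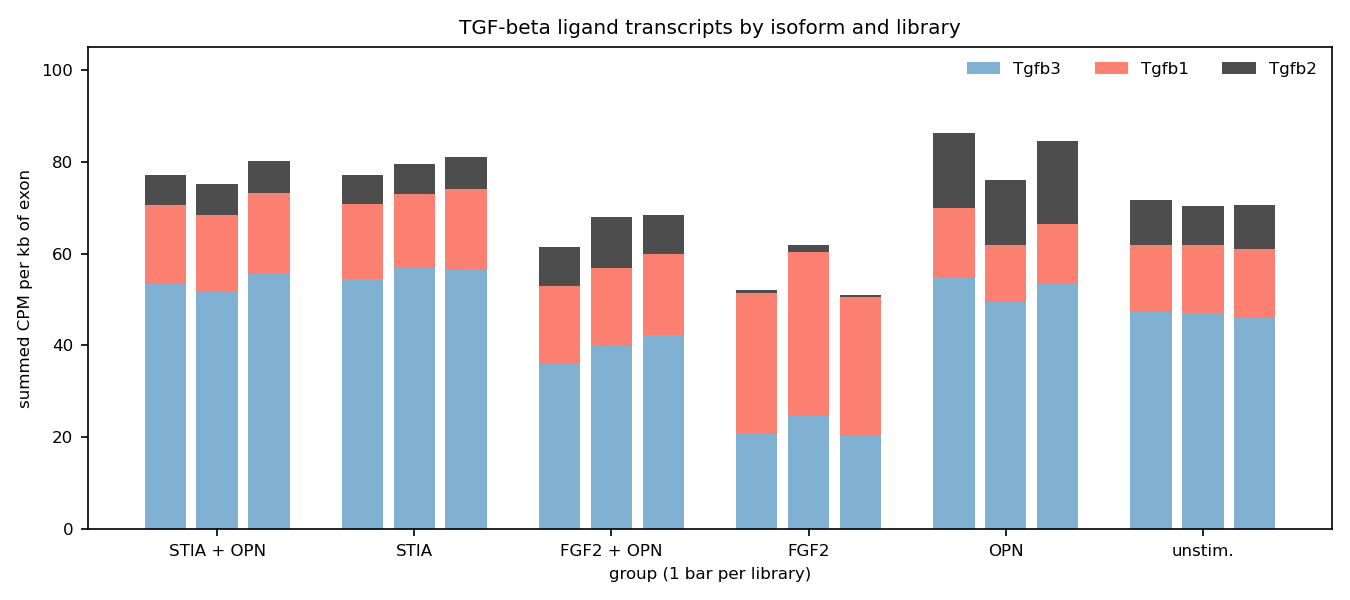
Summed CPM per kilobase of exon of Tgfb3, Tgfb1 and Tgfb2 in each of the 18 libraries, stacked by isoform and grouped by condition. Tgfb1 is the larger part in the 3 FGF2 libraries and Tgfb3 in the other 15.

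Of 8 other receptor, co-receptor and inhibin genes listed, 6 could be tested, and 5 were lower with FGF2, where 57.1% of all genes were called. They were Acvr2a, Eng, Acvrl1, Acvr1b and the inhibin subunit Inha, and the sixth, Acvr2b, did not pass at 1.17 ± 0.21 CPM with FGF2 and 1.03 ± 0.222 CPM unstimulated (SD, n = 3 each). The list had a median log2 fold change of -0.88 against 0.01 over all genes. Acvr2a, a type II activin receptor, averaged 14.1 ± 1.93 CPM with FGF2 and 67.3 ± 8.11 CPM unstimulated (SD, n = 3 each; log2 fold change -2.26, adjusted p = 6.31e-13). Eng, or endoglin, a co-receptor, had a log2 fold change of -1.03 and Acvrl1, a type I receptor, -0.95. With OPN alone 2 of the 6 were lower, Inha (-0.64) and Acvr1b (-0.52), against 31.7% of all genes called. Acvr1b, the main type I activin receptor, was higher with both factors than with FGF2 (log2 fold change 1.25, adjusted p = 1.92e-11). In that comparison 5 of the 6 genes were higher, and 58.4% of all genes were called.

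In STIA cells 4 of the 6 were lower than in naive cells, where 36.8% of all genes were called. Among them was Acvr1b at 19.7 ± 1.14 CPM in STIA and 31.5 ± 1.25 CPM in naive cells (SD, n = 3 each; log2 fold change -0.68, adjusted p = 2.44e-06). OPN raised Acvr2a in STIA cells (log2 fold change 0.51, adjusted p = 0.0159), the 1 called gene of the 6, against 2.17% of all genes. Between STIA and naive cells with OPN, 0 of the 6 were called by edgeR, against 40.0% of all genes. There 0 had an unadjusted p under 0.05, and DESeq2 and limma-voom called 0. Inha, the inhibin alpha subunit, is also counted in the list of antagonists and binders.

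Of 13 genes that store or release latent TGF-beta, 5 were higher and 6 lower with FGF2 (median log2 fold change -0.17), against 57.1% of all genes called. Thbs1, which encodes thrombospondin 1, an activator of latent TGF-beta, averaged 1566 ± 682 CPM with FGF2 and 8904 ± 381 CPM unstimulated (SD, n = 3 each; log2 fold change -2.51, adjusted p = 7.05e-07), and Fbn1, or fibrillin 1, had one of -1.61. Itgb8, a subunit of an integrin that frees TGF-beta, averaged 26.7 ± 5.18 CPM with both factors, against 6.79 ± 1.79 CPM with FGF2 (log2 fold change 1.98, adjusted p = 4.02e-10). OPN alone raised 2 of the 13 and lowered 5, against 31.7% of all genes, and Itgav, the partner subunit of Itgb8, was among the raised (0.88, adjusted p = 0.000244).

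In STIA cells 4 of the 13 were higher, led by Itgav (0.94, adjusted p = 0.000101), and 5 lower, led by Itgb8 (-1.03, adjusted p = 2.89e-05), against 36.8% of all genes. OPN in STIA cells raised 3, namely Itgb8 (0.77), Fbn1 (0.39) and Ltbp4 (0.35), of which limma-voom called 2, against 2.17% of all genes by edgeR. The list's median log2 fold change there was -0.10, opposite in sign to its 3 calls.

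Of 15 Smads and regulators, 5 were higher and 3 lower with FGF2 (median log2 fold change -0.03), no larger a share than the 57.1% of all genes called. Tgif1, a repressor of Smad targets, rose by 1.58 (adjusted p = 2.15e-15) and Bambi, a decoy receptor, by 0.98 (adjusted p = 7.74e-08). In STIA cells 4 were higher and 3 lower, against 36.8% of all genes. Smad7, an inhibitory Smad, averaged 117 ± 5.73 CPM in STIA cells and 78.9 ± 6.18 CPM in naive cells (SD, n = 3 each; log2 fold change 0.57, adjusted p = 0.00694). Smad3 averaged 85.6 ± 1.30 CPM in STIA cells and 131 ± 1.74 CPM in naive cells (log2 fold change -0.61, adjusted p = 2.49e-06). OPN alone changed 4 upward and 3 downward in naive cells, against 31.7% of all genes. In STIA cells edgeR called 0 of the 15 with OPN, against 2.17% of all genes. There 3 higher and 3 lower genes had an unadjusted p under 0.05, DESeq2 called 2 and limma-voom 0.

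Of 20 target genes of TGF-beta and activin, 4 were higher and 11 lower with FGF2, where 57.1% of all genes were called. Their median log2 fold change was -1.07 against 0.01 over all genes. Col1a1, the main fibrillar collagen, averaged 4067 ± 330 CPM with FGF2 and 36970 ± 3314 CPM unstimulated (SD, n = 3 each; log2 fold change -3.18, adjusted p = 3.72e-16). Lox, a collagen cross-linking enzyme, had a log2 fold change of -2.87, Postn, or periostin, -2.72 and Eln, or elastin, -4.85. The level of Eln with FGF2 was low, at 0.51 ± 0.07 CPM. With OPN alone 7 were higher and 5 lower, against 31.7% of all genes called. Eln averaged 67.7 ± 24.1 CPM with OPN and 15.0 ± 2.33 CPM unstimulated (log2 fold change 2.17, adjusted p = 4.58e-06), and Ccn2, a matricellular protein, rose by 1.36.

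With both factors, 3 of the 20 were higher and 10 lower than unstimulated, against 49.8% of all genes called. Tgfbi, a secreted matrix protein, rose there to 577 ± 74.4 CPM, against 141 ± 7.95 CPM unstimulated (log2 fold change 2.04, adjusted p = 3.51e-07). Against OPN alone 2 were higher and 14 lower, where 56.5% of all genes were called. Against FGF2 alone 9 were higher and 3 lower, where 58.4% of all genes were called (4108 higher and 4696 lower). Lox was higher there by 2.27 (adjusted p = 1.82e-12) and Eln by 2.90 (adjusted p = 3.42e-05).

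In STIA cells 10 of the 20 targets were higher and 6 lower (median log2 fold change 0.31 against -0.01 over all genes), where 36.8% of all genes were called. The contractile genes Cnn1, Tagln and Acta2 and the matricellular Ccn2 rose the most. Acta2, smooth muscle actin, averaged 2795 ± 50.7 CPM in STIA cells and 1024 ± 77.8 CPM in naive cells (SD, n = 3 each; log2 fold change 1.45, adjusted p = 0.00173), and Ccn2 averaged 1178 ± 57.7 CPM in STIA cells and 337 ± 12.4 CPM in naive cells (log2 fold change 1.80, adjusted p = 1.87e-05). Beside these contractile genes, the smooth muscle marker Myh11 was at 9.42 ± 0.588 CPM in STIA cells and 2.10 ± 0.511 CPM in naive cells, and the part of such cells was not tested. With OPN in STIA cells edgeR called 1 of the 20, Eln, as higher (1.16, adjusted p = 0.0306), against 2.17% of all genes. DESeq2 called 1 higher and 1 lower there, limma-voom called 0, and 4 higher and 5 lower genes had an unadjusted p under 0.05. Col1a1 and Col3a1 are also fibroblast markers. Other pathways act on these targets too, and their part was not tested.

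**Figure D5:**
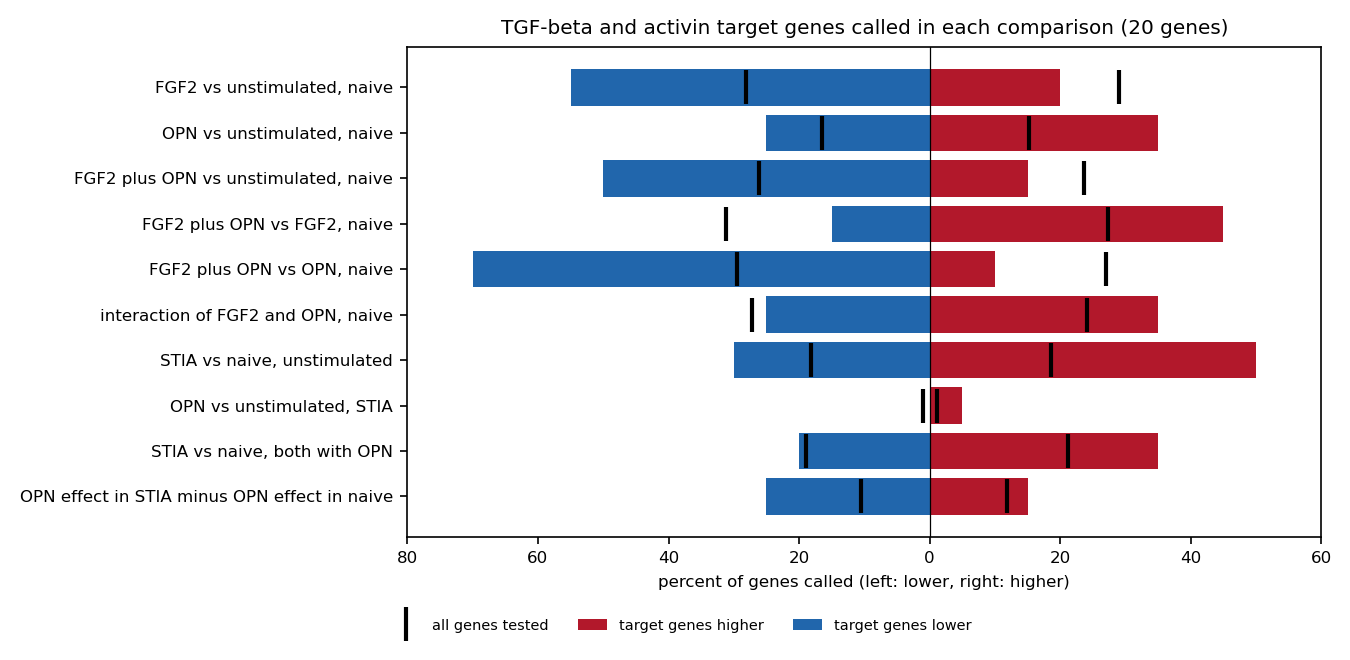
Percent of 20 TGF-beta and activin target genes called lower (left) and higher (right) in each of the 10 comparisons, with black ticks for the same percents over all genes tested. With FGF2 11 of the 20 targets were lower and 4 higher, where 57.1% of all genes were called. In STIA 10 were higher and 6 lower, where 36.8% of all genes were called.

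Among 8 other genes listed as extracellular antagonists and binders, 7 could be tested. With FGF2 5 of these were lower (median log2 fold change -0.73), where 57.1% of all genes were called. Inha, an inhibin subunit, and Lefty1 were among the 5, so the list is not of TGF-beta and activin binders alone. Fmod, or fibromodulin, a TGF-beta-binding proteoglycan, averaged 34.6 ± 5.17 CPM with FGF2 and 1548 ± 55.4 CPM unstimulated (SD, n = 3 each; log2 fold change -5.48, adjusted p = 1.66e-12). By edgeR and DESeq2 all 7 were higher with both factors than with FGF2 alone, and by limma-voom 6, without Tgfbr3l. Of all genes, edgeR called 58.4% there. Dcn, or decorin, averaged 630 ± 81.1 CPM with both factors and 241 ± 179 CPM with FGF2 (log2 fold change 1.39, adjusted p = 0.00849). In STIA cells 5 were lower than in naive cells, among them Fmod (-0.88, adjusted p = 0.000796) and Dcn (-1.20, adjusted p = 0.0324), against 36.8% of all genes called. With OPN 2 of the 7 were lower in naive cells, Inha and Fstl1, against 31.7% of all genes called. In STIA cells edgeR called 0 of the 7 with OPN, against 2.17% of all genes. There 2 had an unadjusted p under 0.05, and DESeq2 and limma-voom called 0. Of 7 other ligands of activin receptors, Gdf11 alone was abundant enough to test, and it was higher in STIA than in naive cells (0.49, adjusted p = 0.000171).

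The 3 genes with the widest range of group means were Tgfb2, Fst and Inhba. Over the 18 libraries and 10564 genes of at least 5 CPM on average, the genes whose log2 CPM followed Tgfb2 most closely were Tent5a (Pearson's r = 0.98), Ecm2 (0.98) and Gas6 (0.97). Those closest to Fst were Ndfip2 (0.96), Cmas (0.96) and C1galt1c1 (0.95), and those closest to Inhba were Itgb1 (0.97), Abracl (0.95) and Arpc4 (0.95). The 18 points fall into 6 groups and share libraries and depth, so these values are a description only. None of the other members was among these genes. By rank correlation 1 of the 3 genes named for Tgfb2, 2 of the 3 for Fst and 1 of the 3 for Inhba were among the top 3.

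Several loci overlap other annotated genes, and the strand setting of the counting is not given, so reads of a gene and its opposite-strand partner cannot be told apart. Tgfb3 (chromosome 12, 86056745 to 86079041, minus strand, GRCm38) overlaps Ttll5 on the opposite strand, which held 774 to 1315 reads per library beside 2107 to 7398 for Tgfb3. Inhba overlaps the antisense gene Gm48444, which held 1 to 20 reads, against at least 3391 for Inhba. The antisense gene at Fst, Gm47040, held at most 6 reads, that at Tgfb2, Gm29491, at most 3, and Prss57 at Fstl3 at most 12.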

How the data were processed

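RNA from sorted synovial fibroblasts was sequenced in 18 libraries, 3 in each of 6 groups taken from the labels. The deposited values are whole-number counts per gene with an exon length, made by the authors with STAR and featureCounts on GRCm38 (mm10), per the submitters' processing notes. Versions, annotation release and strand setting are not stated there. Ensembl identifiers were matched to symbols for 32158 of 32285 genes, and those without a symbol held 0.029% of counts. Library totals were 27527043 to 40357342, and no 2 replicates held identical values (chi-square per degree of freedom 4.62 to 43.65 over all replicate pairs).

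Counts were analysed with edgeR 4.0.16 (limma 3.58.1, R 4.3.3): 15072 genes passed filterByExpr, TMM gave the library sizes, and all 18 libraries entered 1 model with a mean per group, robust quasi-likelihood dispersions and two-sided tests (biological coefficient of variation 7.99%). P-values were adjusted by Benjamini-Hochberg over all genes tested, and below 0.05 counted as a call. Log2 fold changes are given with SEs derived from the quasi-likelihood F statistic. Each SE is the size of the log2 fold change over the square root of F. CPM per kilobase used the deposited exon length. The procedure was tested on simulated counts. The members, pathway lists and markers were chosen with earlier results of these data known. A member called with a log2 fold change of at least 1 in size is given in every library. Of each list up to 4 called genes with the largest fold changes are named, and for the 3 members of widest range the 3 genes of highest Pearson's r are named (log2 CPM, prior count 2, mean of at least 5 CPM). Floors cover counting error only.

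Alternatives were RLE size factors, library totals, no filter, DESeq2 1.42.0, limma-voom, a replicate block, only the groups compared, and leaving out each library. A model without the FGF2 library numbered 2 was added after seeing the data.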

Additional observations from a re-analysis of the deposited data

Results flagged for a closer look

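The effect of OPN differed between STIA and naive fibroblasts in Tgfbr3, Inhba and Fst by a direct test of the difference (edgeR, Benjamini-Hochberg over all genes). For Tgfbr3 the log2 effect was 0.38 in STIA cells and -0.70 in naive cells, a difference of 1.08 (adjusted p = 8.42e-05). For Inhba it was -0.46 in STIA cells and 1.13 in naive cells, a difference of -1.59 (adjusted p = 3.38e-07). For Fst it was -0.31 in STIA cells and 1.11 in naive cells, a difference of -1.42 (adjusted p = 8.01e-08). Each of the 3 differences was called under every alternative run. The calls concern the difference: within STIA cells the OPN effects of Tgfbr3 (adjusted p = 0.0864 by edgeR) and Fst (0.0742) were not called. The Inhba call in STIA cells was lost in 4 of the fits with 1 library left out.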

How the results depend on the processing

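Of 100 pairs of a gene and a comparison, 66 were called, 55 of these were called under every alternative, and 0 changed sign. Beside the losses given in the report, the replicate block ended the STIA calls of Tgfb1 (adjusted p = 0.06) and Tgfb2 (0.0601) against naive cells and of Tgfbr2 with OPN (0.0507). Of the calls against naive cells, Tgfb1 was also lost with no filter, Tgfb2 with RLE factors and DESeq2, and Inhbb with limma-voom. Same-numbered libraries did not deviate together (r of -0.104 to 0.199 over 45 pairs, 2 above 0.1), so the numbers were not taken to pair samples.

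The number of members called moved by over 1.5 times in the comparisons that follow. For OPN in STIA cells it was 2, against 4 with no filter, 4 with DESeq2, 1 with the replicate block, 5 with only the groups compared, 4 without the FGF2 library numbered 2 (added after seeing the data), and 0 to 2 with 1 library left out. Over all genes there were 327 calls there, 38 to 218 with 1 library left out, 948 with no filter, 626 with DESeq2, 1367 with only the groups compared and 615 without that library. Between STIA and naive cells with OPN it was 5, against 8 with no filter and 8 without that library. For the difference of OPN effects it was 3, against 5 with library totals, 6 with no filter, 8 with only the groups compared and 7 without that library. Between unstimulated STIA and naive cells it was 10, and 5 to 7 with 1 library left out.

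Signs turned in uncalled values near 0. Inhba with both factors against unstimulated was 0.12 with library totals. Tgfbr1 with both factors against FGF2 was 0.0053 with RLE factors, 0.0588 with library totals, 0.0052 with DESeq2 and 0.0298 with only the groups compared. The Inhbb interaction was 0.0017 with RLE factors, 0.0532 with totals, 0.0024 with DESeq2, 0.1099 with limma-voom, 0.0435 with the replicate block and 0.0333 with only the groups compared. The Tgfbr1 difference of OPN effects was 0.0012 with the replicate block and 0.0006 without the FGF2 library numbered 2.

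With 1 library left out, the ranges spanning 0 were as follows. For OPN they were -0.0565 to 0.1187 in Tgfbr1 and -0.0435 to 0.0626 in Tgfbr2. For both factors against unstimulated they were -0.1227 to 0.0751 in Tgfb2 and -0.0904 to 0.0225 in Inhba. For both against FGF2 they were -0.0562 to 0.0494 in Tgfbr1, -0.0081 to 0.7498 in Inhbb and -0.0360 to 0.3708 in Fstl3. For the interaction they were -0.1282 to 0.0471 in Tgfbr1, -0.2401 to 0.5176 in Inhbb and -0.1041 to 0.3028 in Fstl3. For STIA against naive cells with OPN it was -0.0151 to 0.0611 in Tgfb3, and for the difference of OPN effects -0.0609 to 0.1145 in Tgfbr1.

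With no division by length, the log2 ratio of Inhba to Fst was 3.944 in STIA with OPN, 4.101 in STIA, 1.988 with both factors, 2.000 with FGF2, 2.516 with OPN and 2.512 unstimulated. The cause of the changes in calls was not tested.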
